A study of Arabidopsis thaliana with 5 samples.

Results

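The comparison described here sets Arabidopsis seedlings held for 30 min in 0.2% oxygen against seedlings kept in air. It uses 1 hypoxic array and 2 air arrays of the 5 arrays in the series, and 8247 of the 8297 probe sets in the table, the other 50 being control probe sets of the array. The arrays were assigned by their labels, and each difference is the value at 30 min of 0.2% oxygen minus the value in air at 0 min, with air at 240 min as the second control. All seedlings were wild-type Col-0, an accession of Arabidopsis thaliana, and were harvested whole at 14 days of age after growth on upright agar plates at 22 °C under days with 16 h of light. Low oxygen was given in plastic bags through which gas of 99.8% nitrogen and 0.2% oxygen was flushed, for 30, 60 or 240 min. Seedlings in air were sampled at 0 and at 240 min. Each treatment and time has 1 array, so every value below is a difference between single arrays with no error and no p-value, and none of the 5 arrays is air at 30 min. The labels do not say how many seedlings went into a sample or whether the air seedlings were also bagged.

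Plants sense low oxygen through group VII ethylene response factors, which are degraded in air and become stable when oxygen is short. They then switch on a core set of genes for fermentation and sugar use, and shoots cut back photosynthesis and costly biosynthesis. Many secreted proteins of the cell wall, such as class III peroxidases and the pathogenesis-related (PR) proteins, are known for responding to stress and for high expression in roots.

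All levels are RMA values on the log2 scale, so a difference of 1 is a 2-fold difference. A probe set was counted as higher or lower at 30 min when it differed by 1 or more and the brighter array lay at or above the median of its column, which left 4555 probe sets. Against 0 min air, 237 of the 4555 (5.2%) were higher and 242 (5.31%) were lower at 30 min. Against both air arrays at once, 209 (4.59%) were higher and 173 (3.8%) were lower. The measure of what 2 air arrays give by themselves was 240 min air against 0 min air, where 15 of 4441 probe sets (0.338%) were higher and 10 (0.225%) were lower. Across the 4555 probe sets the differences had a standard deviation of 0.65 against either air array, compared with 0.25 for the air pair. Single probe sets of the air pair ran from -2.65 to 2.43, and 26 differences at 30 min from 0 min air were larger in size than any of these. The differences from 0 min air reached further up than down, with 62 probe sets higher by 2 or more and 13 lower by 2 or more. Calls at a difference of 1 also varied with level, and the reason was not tested. Of the 4555, 2389 averaged under 6 in air and had little room to fall. A probe set dim in air could also pass the filter through its 30 min value, which favours calls of higher. Of those 2389, 3.43% were higher and 0.126% lower by 1 or more against both air arrays. Where air levels averaged 10 or more, 5.56% of 270 were higher and 23.7% lower.

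**Figure D1:**
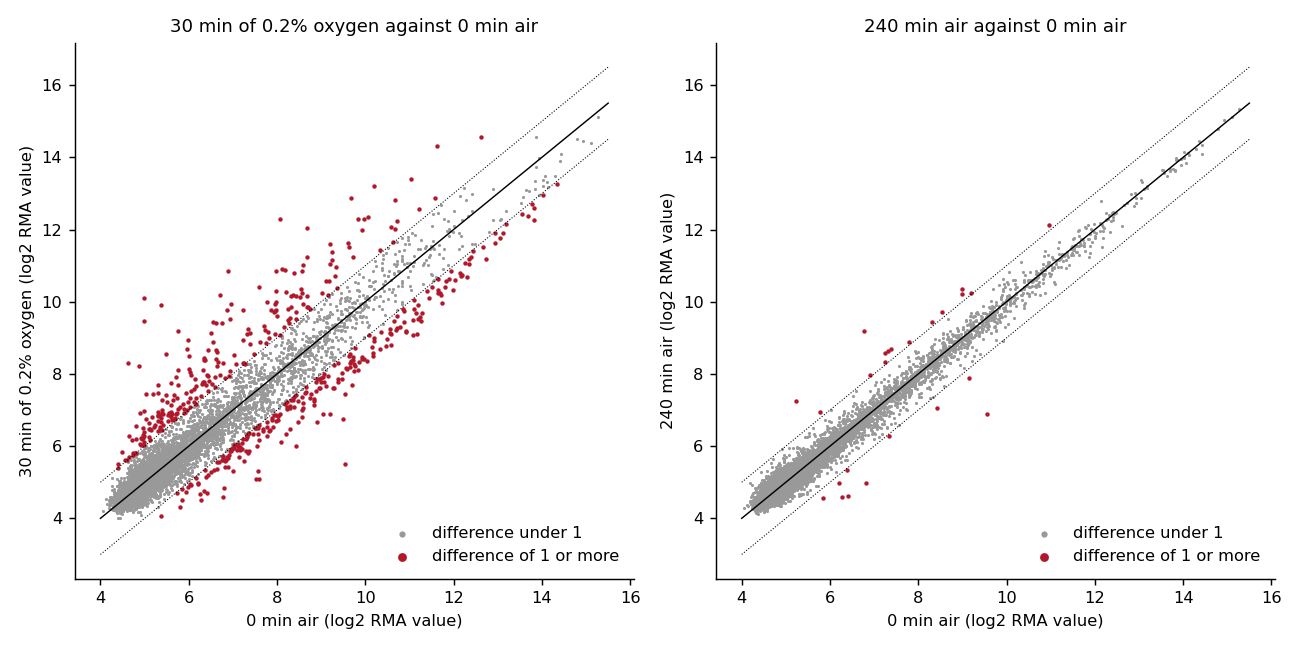
Each point is a probe set, with its log2 RMA value in 0 min air on the x axis and its log2 RMA value at 30 min of 0.2% oxygen (left) or in 240 min air (right) on the y axis. The solid line marks equal values, the dotted lines a difference of 1, and red points lie on or beyond them at any level. The left panel shows a wide cloud and the right panel a narrow one. Over the 4555 probe sets that passed the filter on low values, the differences had standard deviations of 0.65 and 0.25.

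Of the probe sets higher against both air arrays, 86 were tied to 1 gene and gave 82 named genes, and 123 were not named. Of those lower against both, 50 gave 48 named genes, and 123 were not named. Over all 3600 named genes, each read through its brightest probe set and at any level, 93 (2.58%) were higher and 67 (1.86%) were lower than in 0 min air. Against both air arrays 81 named genes (2.25%) were higher and 47 (1.31%) were lower, and in the air pair 7 (0.194%) were higher and 3 (0.0833%) were lower. These shares are the background for each gene list below, whose members were counted in the same way.

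Of the 12 named genes furthest above air at 30 min, 6 are on the peroxidase list, 5 on the lists of PR-1-like proteins, chitinases, beta-1,3-glucanases and thaumatin-like proteins, and 1 is an ACC oxidase, all of them lists written after the values had been seen. The furthest was AT4G33720, a member of the PR-1-like family of small secreted cysteine-rich proteins. Its level was 10.10 at 30 min, against 4.99 and 4.79 in 0 and 240 min air, and it was 5.17 and 4.63 at 60 and 240 min of hypoxia. Only the 30 min array was high. The difference of 5.11 from 0 min air is 34.5-fold, and a second probe set of the gene was higher by 4.47. Its air values sit near the low end of the table, where RMA compresses differences.

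OSM34 (AT4G11650), an osmotin and so a member of the thaumatin-like PR-5 family, reached 12.29 at 30 min, against 8.06 and 8.19 in 0 and 240 min air. The 18.7-fold difference was the second largest by the smaller of the differences from the 2 air arrays. OSM34 was 9.21 at 60 min and 7.90 at 240 min of hypoxia, so it was also 1.15 above 0 min air at 60 min. AT4G16260, of the beta-1,3-glucanase family that cuts callose and fungal wall glucans, had a level of 10.85 at 30 min, against 6.89 and 6.61 in 0 and 240 min air. At 60 and 240 min of hypoxia it read 7.01 and 7.06, close to air.

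Chitinases hydrolyse chitin of fungal walls. The highest of them was AT2G43610, with 10.18 at 30 min, against 6.70 and 6.85 in 0 and 240 min air, an 11.1-fold difference from 0 min air. In all, 5 of 16 measured chitinase genes were higher by 1 or more and none was lower. The other 4 that were higher were CHI (AT2G43570) by 2.14, AT2G43590 by 2.04, and ChiC and AT4G01700 by 1.36 each, while the remaining genes lay between -0.62 and 0.08. The median of the list was -0.03, against 0.00 over all named genes, so most of the list lay near air. A second, dim probe set of AT2G43590 differed by 0.09 from 0 min air.

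Among PR-1-like proteins, 3 of 10 measured genes were higher and none was lower, with a median difference of 0.22. Beside AT4G33720 these were AT4G07820, with 9.14 at 30 min, against 6.50 and 5.90 in 0 and 240 min air, and AT4G33710, higher by 1.29. The call on AT4G07820 rests on 1 of its 4 probe sets, since the other 3 read between 4.21 and 4.75 at 30 min and differed from 0 min air by between -0.19 and 0.10. The neighbouring locus codes AT4G33710, AT4G33720 and AT4G33730 are related copies, and AT4G33730 differed by 0.36. Among beta-1,3-glucanases 2 of 12 were higher, AT4G16260 and AT4G18340 at 2.84-fold, and among thaumatin-like proteins 1 of 10, OSM34. No member of either list was lower by 1 or more, and their medians were 0.04 and 0.11.

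**Figure D2:**
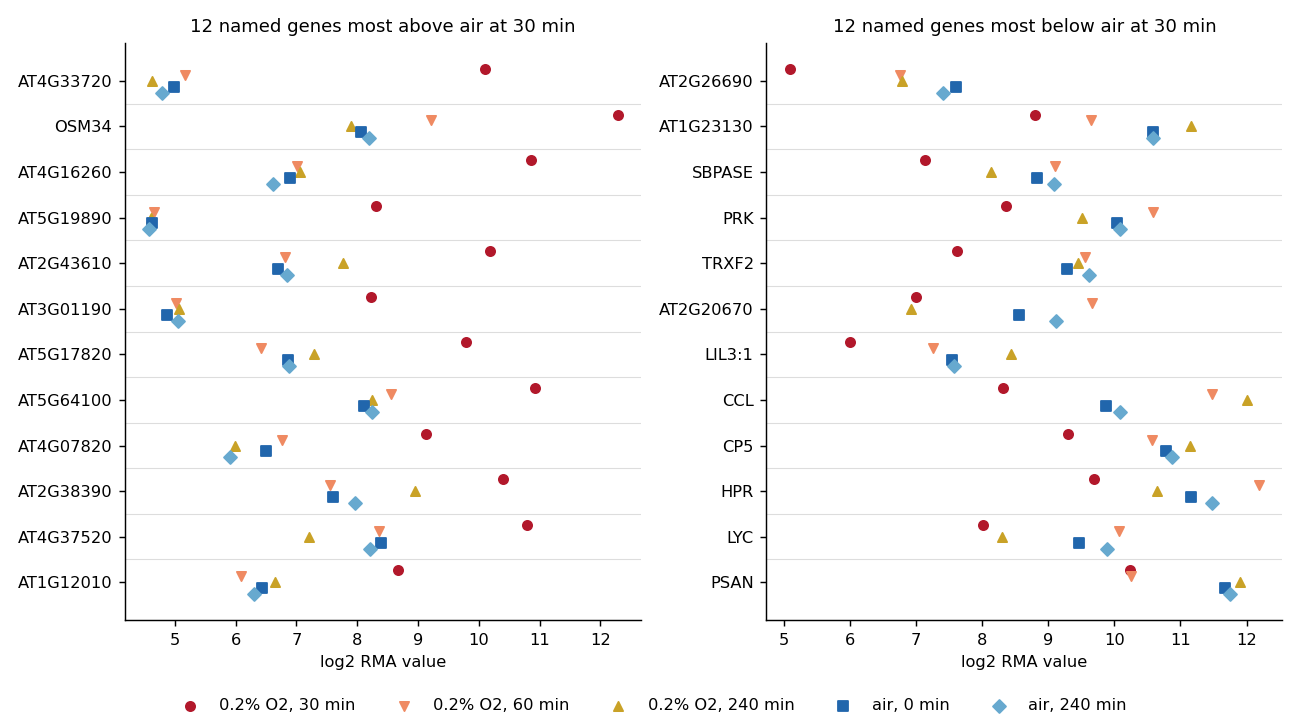
Log2 RMA values on the 5 arrays (x axis) for the 12 named genes most above air (left) and the 12 most below air (right) at 30 min, ranked from the top by the smaller of the differences from the 2 air arrays. In the left panel the 30 min array (red circles) lies to the right of the other 4 for every gene, while in the right panel it lies furthest left except for AT2G20670, where the 240 min hypoxic array reads 6.92 beside 6.998 at 30 min.

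Class III peroxidases are secreted haem enzymes that use hydrogen peroxide to crosslink wall phenolics and lignin precursors or to form reactive oxygen species. Of 73 listed genes 46 were measured, and 37 of them passed the filter on low values. At 30 min 16 of the 46 were higher than 0 min air by 1 or more, 15 of them also above 240 min air by that much, and none was lower. The 16 had a median level of 9.37 at 30 min, against 7.10 in 0 min air and 7.11 in 240 min air. The other 30 differed by between -0.24 and 0.99, and the median difference over all 46 was 0.28, against 0.00 over all named genes. The differences ran on without a gap across the threshold, from 0.99 for AT2G18980 to 1.06 for AT4G26010.

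Of the peroxidases, AT5G19890 read 8.31 at 30 min, against 4.63 and 4.57 in 0 and 240 min air, a 12.8-fold difference. AT3G01190 read 8.22 at 30 min, against 4.87 and 5.05. Both genes were near the low end of the table on the other 4 arrays, with 4.66 and 5.02 at 60 min and 4.61 and 5.07 at 240 min of hypoxia. They were thus high only at 30 min.

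AT5G17820 read 9.78 at 30 min, against 6.86 and 6.89 in 0 and 240 min air, and AT5G64100 read 10.92, against 8.11 and 8.25. AT2G38390 read 10.39, against 7.60 and 7.96, and was also high at 240 min of hypoxia, at 8.95. AT4G37520 stood at 10.80 at 30 min, against 8.39 and 8.21, and was the lowest of the 5 arrays at 240 min of hypoxia, at 7.21. The next genes down were AT1G30870, higher by 2.09, AT1G49570 by 1.99, AT4G36430 by 1.95, AT4G30170 by 1.90 and AT3G32980 by 1.88.

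The brightest of the 16 was PRXR1 (AT4G21960), with 12.25 at 30 min, against 10.71 and 10.72 in 0 and 240 min air. It read 9.70 at 60 min and 11.73 at 240 min of hypoxia, so the hypoxic arrays lay on either side of air. AT2G37130 was higher by 1.48, AT2G35380 and AT2G38380 by 1.24 each and AT4G26010 by 1.06, the last by 0.98 against 240 min air. Across the 16 genes the 60 min array differed from 0 min air by between -1.01 and 0.65, and the 240 min hypoxic array from 240 min air by between -1.001 and 1.02. These comparisons share the air arrays with the one at 30 min.

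Some bright peroxidases lay close to air, and a pair of them was picked to show this after the values had been seen. AT5G64120, known as PRX71, read 9.30 at 30 min, against 9.31 in 0 min air and 8.65 in 240 min air, and AT2G18150 read 9.08, against 9.12 and 9.10. Peroxidases are close relatives, and 8 of the 16 genes were read only through probe sets whose names mark probes shared with other sequences, so a copy may have been read with them. AT2G35380 was also called through such a probe set, while its plain-named one differed by 0.47 and 0.81 from 0 and 240 min air. Among the 31 peroxidase probe sets with plain names, taken at any level, 6 were higher against both air arrays. Over all plain-named probe sets it was 124 of the 3257 at the level required, so the shares are not counted alike. Read through plain-named probe sets alone, the median difference of the family was 0.05 in place of 0.28.

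**Figure D3:**
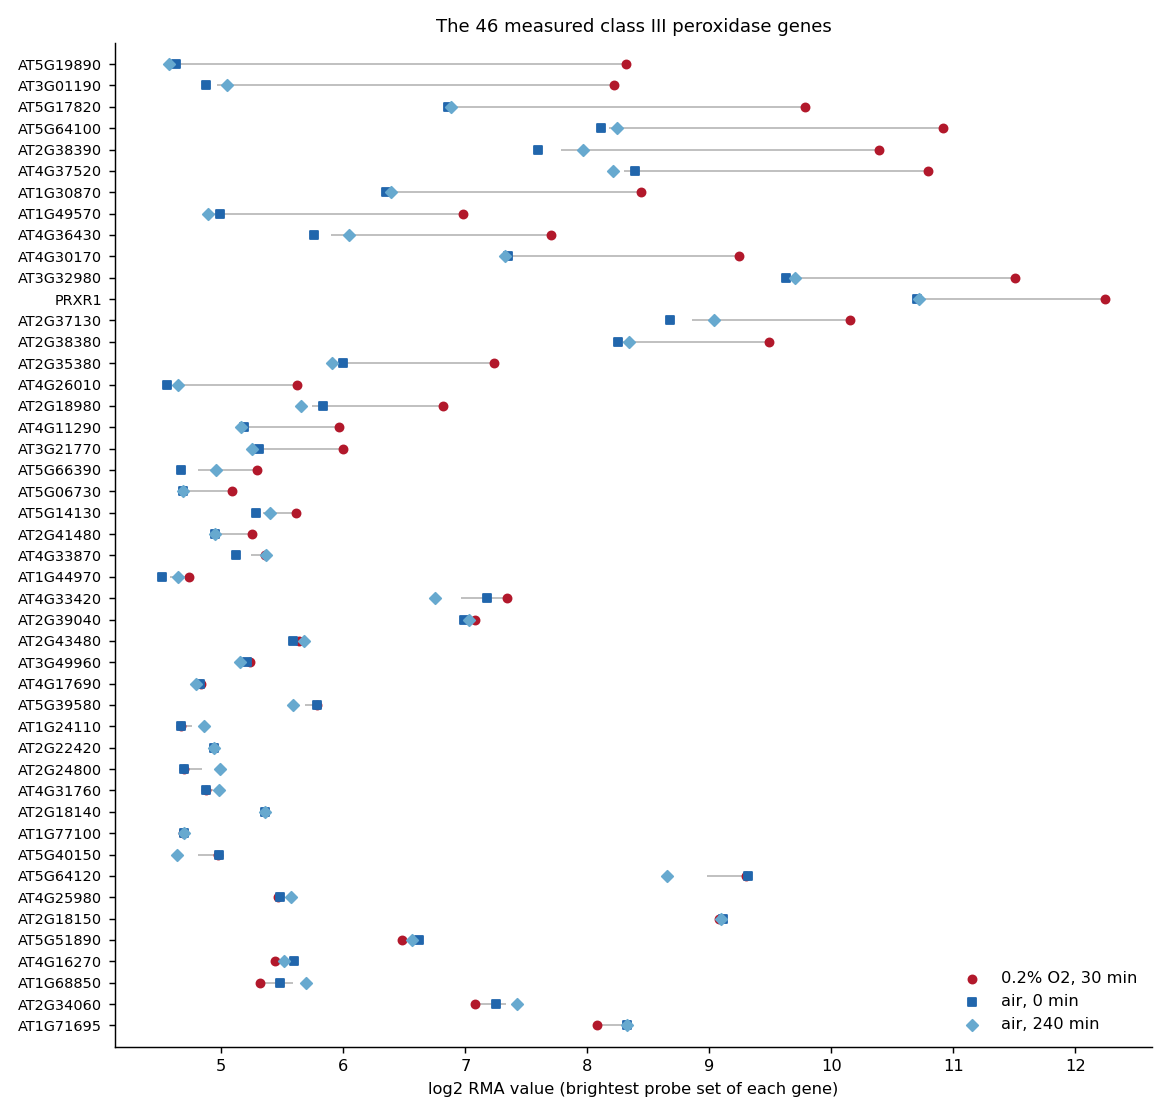
Log2 RMA values (x axis) of the 46 measured class III peroxidase genes at 30 min of 0.2% oxygen (red circles) and in air at 0 min (dark blue squares) and 240 min (light blue diamonds), sorted from the top by the difference from 0 min air, with grey lines from the 30 min value to the mean of the air values. The upper 16 genes lie 1 or more above 0 min air, and the other 30 lie between -0.24 and 0.99 of it.

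AT1G12010, an ACC oxidase of the last step of ethylene synthesis, read 8.67 at 30 min, against 6.43 and 6.31 in 0 and 240 min air. It was the single measured gene of its list, and EIN3, the transcription factor at the end of ethylene signalling, differed by 0.36. Of 22 measured UDP-glycosyltransferases, which attach sugars to hormones and phenolics, 3 were higher and none was lower, with a median of 0.14. UGT71D1 read 8.05 at 30 min, against 6.03 and 5.91 in air. UGT72E1, known for glucosylating lignin precursors, read 10.15, against 8.44 and 8.16, and UGT71C1 was higher by 1.10.

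Of 12 measured genes of the berberine bridge enzyme family, flavin oxidases of which some act on wall fragments and on lignin precursors, 2 were higher, AT5G44380 by 2.17 and AT4G20860 by 1.20, and the median was 0.09. The pectin methylesterase gene ATPMEPCRB (AT4G02330) was higher by 1.74, while a dim second probe set of it differed by 0.06. BGLU21, a root beta-glucosidase, read 9.32, against 7.71 and 7.59 in 0 and 240 min air, and was the 1 higher gene of 9 in its list. None of 3 glutathione S-transferases passed 1 against 0 min air, with GSTF3 at 0.95, GSTU18 at -0.92 and a median of -0.03. None of 3 cytochromes P450 passed 1 either.

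Regulators and protective proteins showed few differences of that size. All but 1 of 8 measured WRKY factors, DNA-binding proteins known from immunity, lay above 0 min air, with a median difference of 0.35, but WRKY29 alone passed 1. It read 6.17 at 30 min, against 4.72 and 4.60 in 0 and 240 min air. Of 11 dehydrins and late embryogenesis abundant proteins, which protect membranes and proteins in drying or cold cells, 2 were higher and the median was 0.16. The dehydrin HIRD11 (AT1G54410) read 12.02, against 10.68 and 10.62, and LEA27 (AT2G46140) read 6.91, against 5.38 and 5.56. COR47 was higher by 0.92 through its brighter probe set, and by 1.24 against 240 min air. Its other probe set passed 1 against both air arrays, at 1.70 and 1.26, so the count depends on the probe set read. KIN2 was lower by 0.79. HIRD11 also read 11.57 and 11.82 at 60 and 240 min of hypoxia, so it was above both air arrays on all 3 hypoxic arrays.

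Genes of photosynthesis lay below air. Of the 18 measured genes on the lists for light reactions, carbon fixation, photorespiration and pigment synthesis, all 18 lay below both air arrays and 12 were lower than 0 min air by 1 or more. The 18 include AT1G51400 and AT2G26500, both among the 12, which were listed after the values had been seen. The background for such a call was 1.86% of named genes at any level. It was higher among bright genes. With air levels averaging 10 or more, 10 of 13 genes on these lists were lower, beside 10 of 68 other named genes. AT1G51400 and AT2G26500 are among these 10 and 13 as well, so this count also holds members listed after the values had been seen. Whole seedlings hold root and shoot, and fewer cells of a type and less RNA per cell cannot be told apart in such samples.

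Of the enzymes of the Calvin cycle, SBPASE (sedoheptulose bisphosphatase, which regenerates the carbon dioxide acceptor) read 7.13 at 30 min, against 8.83 and 9.09 in 0 and 240 min air. PRK, phosphoribulokinase, read 8.36, against 10.04 and 10.08. RCA, the activase of Rubisco, read 13.27, against 14.35 and 14.47. All 6 measured genes of the cycle and of photorespiration were below both air arrays, with a median of -1.27 against 0 min air and -1.46 against 240 min air, and 5 of them were lower than 0 min air by 1 or more.

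The remaining members were HPR, the hydroxypyruvate reductase of photorespiration, with 9.69 at 30 min, against 11.15 and 11.48 in air, AT1G11860 with a difference of -1.02 from 0 min and -0.72 from 240 min air, and AT1G56190 with -0.52. TRXF2, the chloroplast thioredoxin f that activates Calvin cycle enzymes in light, read 7.61, against 9.29 and 9.61. At 60 min SBPASE read 9.10, PRK 10.59, HPR 12.19 and TRXF2 9.56, each at or above its level in 0 min air. For these genes the 30 min array was the lowest of the 5.

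In the thylakoid, PSAN, a subunit of photosystem I, read 10.23 at 30 min, against 11.68 and 11.75 in 0 and 240 min air. PSAN was almost as low at 60 min, at 10.25, and read 11.91 at 240 min of hypoxia. LHB1B2, a light-harvesting protein of photosystem II, read 12.38 at 30 min, against 13.69 on both air arrays. LHCB4.1, a minor antenna protein, read 12.96, against 14.02 and 13.99.

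Counted by symbol, 8 photosystem and antenna genes were measured, 4 of them lower by 1 or more and all 8 below both air arrays, with a median of -0.94, against -0.02 for the air pair. Beside the 3 above, PSB27, an assembly factor of photosystem II, was lower by 1.17 and by 0.75 against 240 min air, PSBW by 0.82, PSBY by 0.77, PSAE-1 by 0.66 and the dim LHCB4.3 by 0.29. The loci AT1G51400 and AT2G26500, added to a list of light reactions by locus, were lower by 1.44 and 1.32, and 6 of the 10 genes on that list were lower.

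Bright probe sets were lower more often than dim ones, and the reason was not tested. Dim ones had little room above the low end of the table to fall by 1, and the share lower also rose between levels well above it. With air levels averaging under 6, 0.126% of 2389 probe sets were lower against both air arrays and 3.43% were higher. At 6 to 8 the shares were 3.92% and 4.97% of 1328. Where air levels averaged 10 or more, 23.7% of 270 probe sets were lower against both air arrays and 5.56% were higher, with a median of -0.34, and at 8 to 10 the shares were 9.51% and 8.1% of 568. Among named genes with air levels averaging 10 or more the median was -1.31 for the 13 on the photosynthesis and pigment lists, 10 of which were lower. For the 68 others it was 0.07, with 10 lower and 4 higher. The 13 include AT1G51400 and AT2G26500, listed after the values had been seen. Quantile-normalizing the columns once more moved the brightest genes most: LHCB4.1 was then lower by 0.61 and RCA by 0.57, both under 1, and LHB1B2 by 1.04.

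Of the 2 measured genes on the pigment list, 1 was lower by 1 or more. This was AT1G74470, the geranylgeranyl reductase that makes the phytol tail of chlorophyll, which read 9.13, against 10.57 and 10.61 in 0 and 240 min air. PORB, which reduces protochlorophyllide in light, was lower by 0.70. A further pair of genes, not on that list, was among the 12 most below air. LYC, lycopene cyclase of carotenoid synthesis, read 8.02, against 9.47 and 9.89. LIL3:1, a light-harvesting-like protein needed for chlorophyll synthesis, read 5.99, against 7.54 and 7.58, and read 7.26 and 8.43 at 60 and 240 min of hypoxia.

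**Figure D4:**
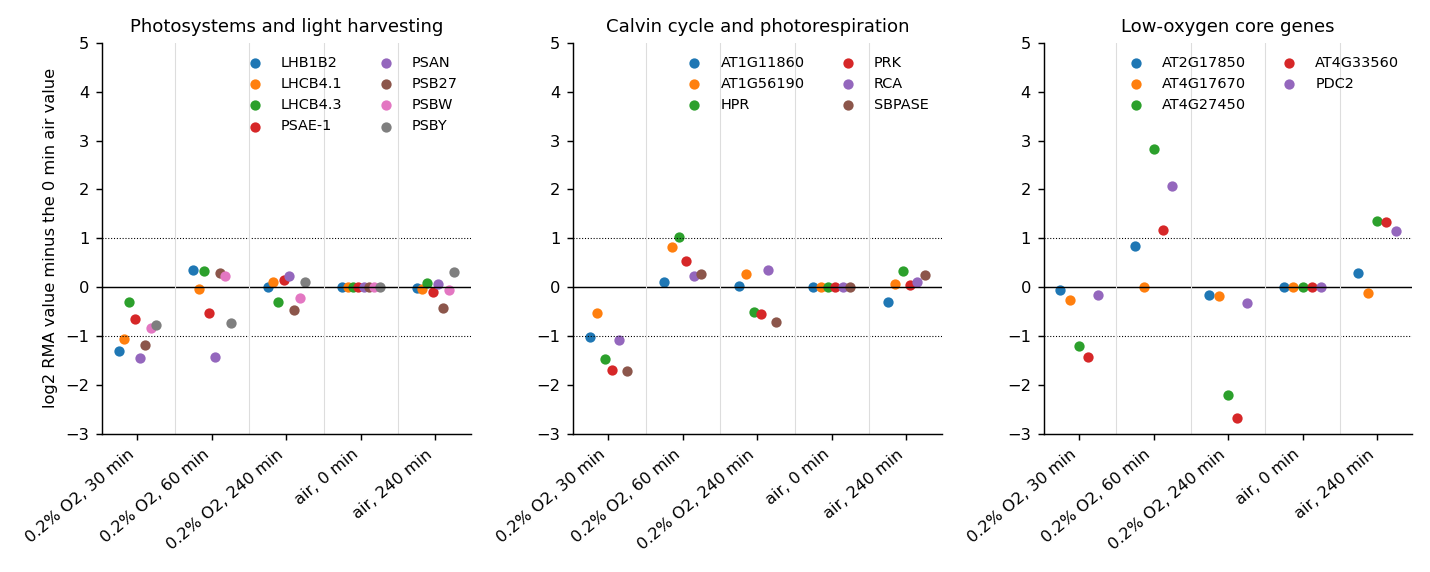
Log2 RMA value minus the value in 0 min air (y axis) on the 5 arrays for the measured photosystem and antenna genes (left), Calvin cycle and photorespiration genes (middle) and low-oxygen core genes (right), 1 colour per gene in each panel and dotted lines at a difference of 1. At 30 min every point of all 3 panels lies below 0, while in 240 min air the points of the first 2 panels lie near 0 and 3 low-oxygen genes lie above 1.

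The named gene furthest below both air arrays was AT2G26690, the NRT1/PTR family member NPF6.2 of a family of nitrate and peptide transporters. It read 5.09 at 30 min, against 7.60 and 7.40 in 0 and 240 min air, 5.69-fold lower than at 0 min. The 60 and 240 min hypoxic arrays read 6.76 and 6.79, also below air. AT3G21670 (NPF6.4) was lower by 1.19, and by 0.88 against 240 min air, AT1G59740 (NPF4.3) was lower by 0.27, and none of the 5 measured genes of the nitrate list was higher than 0 min air, with a median of -0.27.

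AT1G23130 read 8.80 at 30 min, against 10.59 and 10.58 in 0 and 240 min air, and AT2G20670 read 6.998, against 8.55 and 9.11. Both are locus codes without a name in the tables used. CP5 (AT1G64720) read 9.29, against 10.79 and 10.87, and its second probe set was lower by 1.23. CCL, a transcript that cycles with the clock, read 8.32, against 9.87 and 10.09, and the clock gene GI was lower by 0.39. EXPA8, a wall-loosening expansin, was lower by 1.53 against 0 min air but by 0.61 against 240 min air, and was the 1 gene of 14 expansins and xyloglucan enzymes to pass 1, with a list median of 0.02. None of 9 auxin response genes did, and they ran from -0.36 to 0.28.

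The core low-oxygen genes were not higher at 30 min. All 5 measured of 44 listed lay below both air arrays, 2 of them by 1 or more, and their median difference was -0.25 against 0 min air and -1.32 against 240 min air. The air arrays themselves differed for this list, with a median of 1.16 for 240 min air over 0 min air. PDC2, a pyruvate decarboxylase that opens the ethanol fermentation route, read 5.62 at 30 min, against 5.78 and 6.94 in 0 and 240 min air. At 60 min it read 7.85, and at 240 min of hypoxia 5.46.

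AT4G27450 read 7.79 at 30 min, against 8.99 and 10.35 in air, with 11.81 at 60 min. AT4G33560 read 5.87 at 30 min, against 7.30 and 8.63, with 8.48 at 60 min. The other 2, AT4G17670 and AT2G17850, differed by -0.25 and -0.06 and lay near the low end of the table on every array. The 60 min array had a median of 1.18 over 0 min air for the 5 genes, set here beside -0.25 at 30 min since the comparisons share the 0 min air array. Over 240 min air the 60 min median was 0.56, beside -1.32 at 30 min, so its size depends on the control.

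The wider metabolic lists were thinly measured. ENOC, an enolase gene, differed by 0.02. Of 4 carbon starvation genes none passed 1 against 0 min air, and their median was 0.16 against 0 min air and -0.08 against 240 min air. AT3G15450 of that list was above 0 min air by 0.73 and below 240 min air by 0.42. The heat shock gene Hsp70-2, the 1 measured gene of its list, was higher by 0.32 at 30 min. AT3G09440, an HSP70 gene outside that list, was higher by 1.04 against 0 min air and 2.30 against 240 min air. Its second probe set was higher by 0.13 and 0.54. No gene of the lists for NAC and MYB factors, ribosomal proteins, aquaporins, jasmonate response or receptor-like kinases was among the named genes, so they say nothing here.

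**Figure D5:**
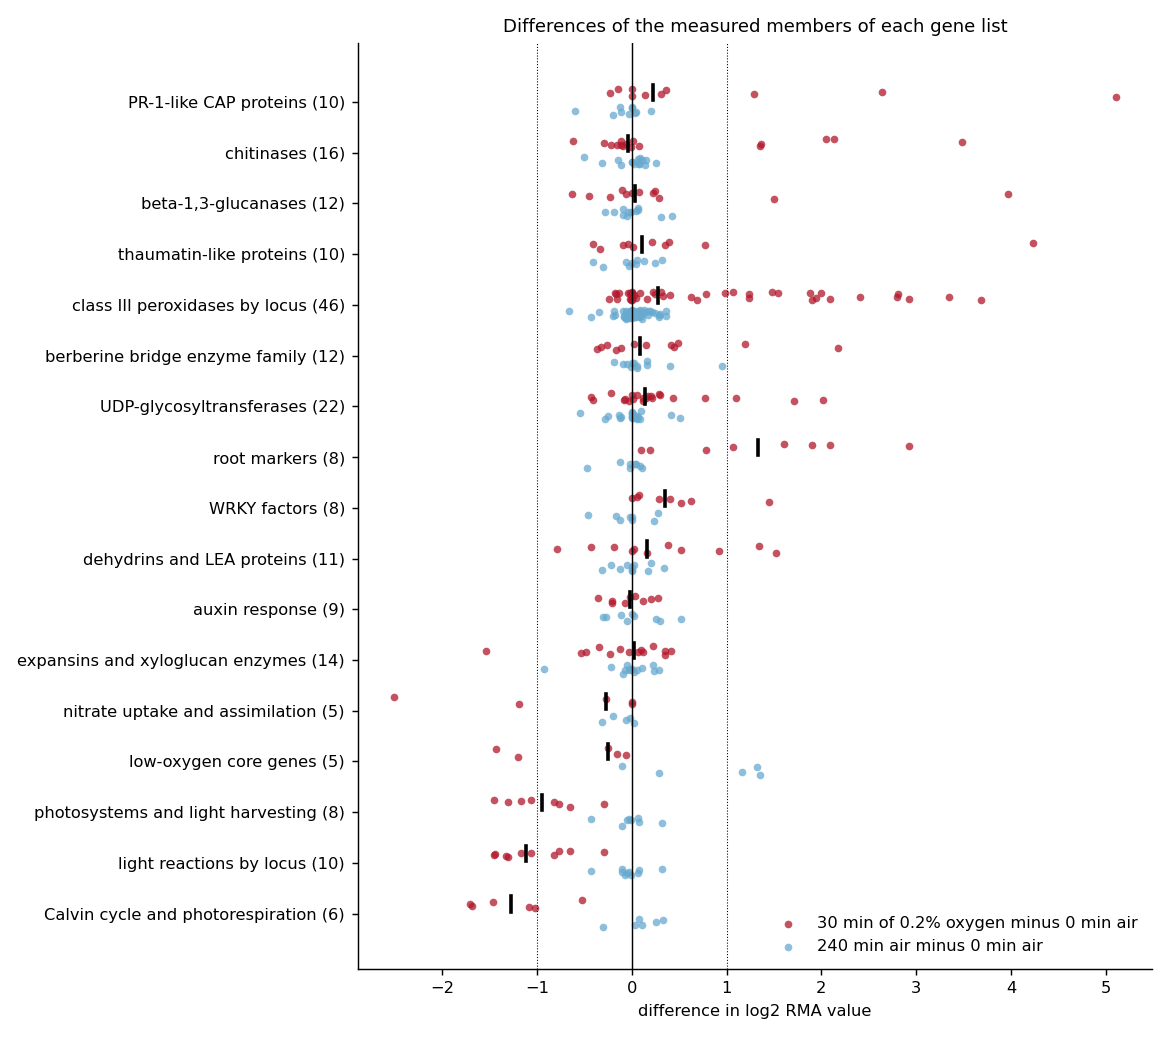
Differences in log2 RMA value (x axis) for the measured members of 17 gene lists, as 30 min of 0.2% oxygen minus 0 min air (red, upper row of each list) and 240 min air minus 0 min air (blue, lower row), with the number of genes in brackets and black bars at the median of the red points. The red points of the secreted protein, peroxidase and root marker lists reach far to the right, those of the photosynthesis lists lie to the left of 0, and the blue points lie within 1 of 0 except for 3 low-oxygen genes.

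Other measures moved with these differences, and their part in them was not tested. Of 8 measured root markers all 8 were above 0 min air and 5 were higher by 1 or more, with a median of 1.33, and 5 of the 8 are peroxidases counted above. They ran from AT5G17820, AT1G30870, AT4G30170 and BGLU21, at 2.93, 2.09, 1.90 and 1.60, through AT4G26010 at 1.06 and AT4G11290 at 0.78, to AT4G12545 at 0.19 and XTH26 at 0.10. The shoot is represented by the photosynthesis lists, all 18 of whose genes were below air. Root genes above air and shoot genes below it therefore stood on the same array.

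The 6 Arabidopsis GAPDH and ubiquitin control probe sets were higher at 30 min by 1.51 to 1.78 against 0 min air and by 1.09 to 1.35 against 240 min air, while the air pair differed by 0.34 to 0.48. The actin control differed by 0.18 and 0.01 from the 2 air arrays, and 9 bacterial and phage control probe sets by between -0.09 and 0.75 against 0 min air. The 3′ probe set minus the 5′ one, a measure of RNA integrity and labelling, was 0.69 for GAPDH at 30 min, against 0.57 and 0.55 in 0 and 240 min air. For ubiquitin it was 2.15, against 1.96 and 1.89. At 60 and 240 min of hypoxia it was -0.23 and 1.97 for GAPDH, and 1.67 and 2.39 for ubiquitin. Whether this bears on the values given for those times was not tested. AT4G26410, often used as a reference gene, differed by 0.05. The 3 histone genes differed by between -0.31 and 0.15, and the 6 tubulins and actins by between -0.28 and 0.34.

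Of the genes called against both air arrays through the probe set that differed most, 21 had another probe set, 25 in all. Of these 25, 21 differed in the same direction against both air arrays, 6 of them by 1 or more, and the 4 that did not were 3 probe sets of AT4G07820 and 1 of AT2G43590. CP5, LYC, LHB1B2, COR47 and the peroxidases AT2G35380 and AT2G38380 were among the genes whose second probe set had the same sign.

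The 12 genes most above air at 30 min lay within 0.5 of 0 min air at 60 min except OSM34, and their differences at 240 min of hypoxia from 240 min air ran between -1.001 for AT4G37520 and 0.99 for AT2G38390. The 12 most below air were more varied. At 60 min they differed from 0 min air by between -1.43 for PSAN and 1.61 for CCL, and at 240 min of hypoxia from 240 min air by between -2.19 for AT2G20670 and 1.92 for CCL. AT2G20670 was thus low at 30 and 240 min of hypoxia and high at 60 min, at 9.67.

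Probe sets without a named gene also lay far from air. Of these 20421_at read 9.91 at 30 min, against 5.38 and 4.92 in 0 and 240 min air, and 19737_at read 9.18, against 5.76 and 5.84. In the other direction 15624_s_at read 6.75, against 9.49 and 9.33, and 15098_s_at read 5.09, against 7.53 and 7.64. All 4 were chosen for being furthest from both air arrays, and what they measure is not known here.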

How the data were processed

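Whole-seedling total RNA was labelled with biotin and hybridised to 1-colour Affymetrix arrays, 1 array for each of 5 treatments and times. The deposited values are log2 values, and the submitters' processing notes name RMA as the tool; its version and settings are not given in the sources used. RMA subtracts background and quantile-normalizes the arrays together, which forces their distributions to match and compresses differences near the floor. Column medians ran from 5.12 to 5.14, and no further scaling was applied.

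From these values, differences between arrays were taken per probe set with Python 3.11.15, numpy 2.4.6 and pandas 2.3.3, after setting apart 50 control probe sets. With 1 array a side no test was possible, and precision is limited by the number of arrays. A call needed a difference of 1 or more and a brighter array at or above its column median. The counting was tested on simulated data.

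Probe sets were named through the platform's annotation and the TAIR10.1 RefSeq gene table, used for names only: 3792 had 1 matched gene, 70 had several, 4383 were not listed and 2 did not match. Several locus codes carry no name there, and their families were assigned by locus from general knowledge. Named genes are the 12 furthest above and the 12 furthest below both air arrays, the 3 largest and all called members of each list, and all low-oxygen genes; other members named for contrast were picked after their values had been seen. The members and lists were chosen with earlier results of these data known. Lists by locus, for peroxidases, PR-1-like proteins, chitinases, glucanases, thaumatin-like proteins, berberine bridge enzymes, ethylene-forming enzymes, light reactions and tropinone reductase-like proteins, were added after the values had been seen, because words in the tables name few of them. A list of AP2/ERF factors was dropped because its words matched clone names. Alternatives changed the control array, the scaling, the size of difference, the filter and the probe set per gene. Promoter motifs and sequences were not analysed here.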

Additional observations from a re-analysis of the deposited data

Results flagged for a closer look

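The 30 min array and a later hypoxic array lay on opposite sides of both air arrays, by 1 or more each, for 4 named genes, and these differences between times were not tested. The peroxidase gene AT4G37520 was above both air arrays by at least 2.41 at 30 min and differed from them by -1.001 at 240 min, by the smaller of the 2 differences. PRXR1, also a peroxidase, was above air by at least 1.53 at 30 min and differed by -1.01 at 60 min. CCL was below air by -1.55 at 30 min and above it by 1.39 at 60 min and 1.92 at 240 min. AT4G27450 of the low-oxygen list differed by -1.20 at 30 min and by 1.46 at 60 min.

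Control probe sets for plant transcripts, which are outside the comparison, were above both air arrays at 30 min. By the smaller of the 2 differences GAPDH was higher by 1.24, 1.10 and 1.25 in its 3′, 5′ and middle probe sets, and ubiquitin by 1.35, 1.09 and 1.33.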

How the results depend on the processing

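The alternatives were run on the genes picked by the naming rule, 66 of which differed from 0 min air by 1 or more. These 66 kept their direction with 240 min air or the mean of both air arrays as control, quantile normalization once more, or removal of a trend with level, and between 61 and 64 of them still passed 1. Centring could not alter a call, since the median difference was 0.00. Through plain-named probe sets alone the peroxidase median of 0.28 became 0.05, a setting chosen after seeing the data. The counts of probe sets higher ranged from 199 to 253 and those lower from 173 to 243 under the other controls, scalings and filters, but a difference of 1.5 left 120 higher and 65 lower. The low-oxygen median of -0.25 became -1.32 with 240 min air, -0.74 with the mean of both air arrays and -0.73 over members at the level required. The photosystem median became -0.67 after quantile normalization once more. Keeping only members at the level required leaves fewer genes and moved medians to 0.45 (berberine bridge enzymes), 0.48 (beta-glucosidases), 0.51 (carbon starvation), 0.68 (chitinases), 0.69 (peroxidases), 0.45 (dehydrins and LEA proteins), -0.23 (expansins), -1.19 (nitrate), 1.60 (root markers), 1.75 (secreted defence proteins by symbol) and -0.57 (tropinone reductase-like proteins). That filter can favour genes high at 30 min, and no result rests on these medians. Other causes of the shifts were not tested. No paired analysis was possible because the labels carry no replicate numbers and each group has 1 array. Differences at dim probe sets are compressed by RMA.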

Other observations

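The tropinone reductase-like proteins are short-chain dehydrogenases coded by a run of neighbouring locus codes. Of 7 measured, 2 were higher and 2 lower at 30 min, a list chosen after its values had been seen. AT2G29150 read 6.78 at 30 min, against 5.37 and 5.16 in 0 and 240 min air, and TRI (AT2G29330) read 6.71, against 5.63 and 5.42. AT2G29340 read 5.89, against 7.16 and 7.34, and AT2G29310 read 5.57, against 6.64 and 6.85. Each of the 4 differed in the same direction against both air arrays, and the air arrays differed from each other by no more than 0.21 for them, so copies next to each other in code number stood on opposite sides of air.

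Exactly equal values on both arrays were seen for 418 of the 8247 probe sets between 30 min and 0 min air (5.07%) and for 614 (7.45%) between the air arrays. How the processing gave equal values was not tested, and leaving out probe sets with equal values on any pair of the 3 arrays compared left 220 higher and 235 lower at 30 min.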
